A study of Mus musculus with 2 samples.

Results

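The iron uptake and storage genes described here are Tfrc, Steap3, Slc11a2, Slc25a37, Fth1, Ftl1 and Hmox1. They were taken by symbol, and all 7 were found among the 31053 genes of the count matrices. LSK cells are sorted from mouse bone marrow as negative for mature lineage markers and positive for Sca1 and c-Kit, and they hold the stem cells and early progenitors of the blood. They were profiled one by one on the 10x Genomics platform (3' chemistry), in 2 libraries of C57BL/6J mice aged 6-8 weeks, with no engineered allele named in the labels. The control library carried no treatment other than its control label, and the irradiated library came from marrow taken at day 15 after a dose of 5 Gy to the whole body. Both were flushed, freed of red cells by lysis and sorted in the same way. The labels do not say how many animals went into a library or whether animals were pooled, and there was 1 library per group, so no difference below has a replicate check and no p-value is given.

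Most cells take up iron as transferrin bound to the transferrin receptor, encoded by Tfrc. The complex is carried into endosomes, where Steap3 reduces the iron and Slc11a2 (DMT1) moves it into the cytosol. Mitoferrin-1, encoded by Slc25a37, carries iron into mitochondria for haem and iron-sulfur cluster synthesis. Iron that is not used is stored inside ferritin, a shell of heavy chains (Fth1) and light chains (Ftl1). Hmox1, haem oxygenase 1, releases iron from haem. Red cell precursors have by far the largest need for iron in the marrow, and dividing cells need it for DNA synthesis.

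Iron regulatory proteins bind a hairpin, the iron-responsive element, in several of these mRNAs: in a 5' UTR it governs translation, and in a 3' UTR it governs the stability of the mRNA. These elements are shown because the control they give acts partly after the mRNA level measured here. The UTRs of all 7 members (GENCODE M21 transcripts, build GRCm38) were searched on the transcript strand for a C, any 5 bases, the loop CAGTGN and 5 bases that pair with the 5 before the loop, G-T pairs allowed. A match in the 5' UTR was found in Fth1, at chr19:9982731-9982760 on the plus strand, and in Ftl1, at chr7:45459779-45459808 on the minus strand. The 3' UTR of Tfrc held 4 matches, all on the plus strand, at chr16:32631218-32631247, chr16:32631597-32631626, chr16:32631662-32631691 and chr16:32631709-32631738. Each is printed 5′ to 3′ as 30 bases with the 6 bases of the loop in capitals, and the Tfrc matches are numbered in the order given.
Fth1 5' UTR: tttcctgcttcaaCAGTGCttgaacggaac
Ftl1 5' UTR: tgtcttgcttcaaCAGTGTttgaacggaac
Tfrc 3' UTR site 1: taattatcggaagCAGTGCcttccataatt
Tfrc 3' UTR site 2: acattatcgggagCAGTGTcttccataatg
Tfrc 3' UTR site 3: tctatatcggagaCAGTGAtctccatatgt
Tfrc 3' UTR site 4: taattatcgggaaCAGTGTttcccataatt
The same letters were found in the 5' UTR of 31 of 20834 genes (0.149%) and in the 3' UTR of 144 of 21107 genes (0.682%). Among the related iron and haem genes described further on, Alas2 and Slc40a1 held a match in the 5' UTR and Bola3 in the 3' UTR. No match in the other 4 members, Slc11a2 among them, means only that this pattern of letters is not in their annotated UTRs. An element whose stem departs from these 5 pairs would be missed, so the search cannot tell whether they hold one.

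After filtering, 7189 control cells with 138113621 unique molecular identifiers (UMIs, 1 per captured mRNA molecule) and 5112 irradiated cells with 162741683 UMIs were kept. The median cell held 16084 UMIs in the control library and 29615 in the irradiated library, a ratio of 1.84, and the median share of mitochondrial UMIs was 4.38% against 3.24%. The libraries shared 16 cell barcodes. The doublet caller marked 1 control cell and 16 irradiated cells, under 0.5% of each library, so doublet calling has not worked here and doublets remain. Levels below are UMIs per 1000000 UMIs (CPM), and each log2 ratio, irradiated over control, carries an exact 95% interval that covers counting error only. A gene was counted as higher or lower in the irradiated library where the larger of its 2 levels exceeded the smaller by 25% or more.

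Over all kept cells, the genes of transferrin-bound iron import were higher in the irradiated library, while both ferritin chains, mitoferrin and haem oxygenase stayed within the 25% limit. Tfrc (chromosome 16, 32608920 to 32632794, plus strand, GRCm38) stood at 26.5 CPM in the control library (3661 UMIs) and 61.0 CPM in the irradiated library (9931 UMIs). That is a log2 ratio of 1.20 (1.15 to 1.26), or 2.30-fold. Among the 5247 genes whose mean reached 20 CPM, 99.3% had a lower ratio. Steap3, the endosomal reductase (chromosome 1, 120190757 to 120272705, minus strand), stood at 7.07 CPM in the control library (976 UMIs) and 13.9 CPM in the irradiated library (2261 UMIs). Its log2 ratio was 0.98 (0.87 to 1.09). Slc11a2, the endosomal iron transporter (chromosome 15, 100387898 to 100425072, minus strand), stood at 4.26 CPM (589 UMIs) and 8.34 CPM (1357 UMIs), and the log2 ratio was 0.97 (0.83 to 1.11). All 3 import genes were therefore nearly doubled or more in the irradiated library, by amounts far outside counting error. Slc11a2 overlaps Gm5475 on the opposite strand.

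The mitochondrial and storage genes differed little. Slc25a37 (chromosome 14, 69241848 to 69285112, minus strand) stood at 28.3 CPM in the control library (3912 UMIs) and 24.2 CPM in the irradiated library (3945 UMIs), a log2 ratio of -0.22 (-0.29 to -0.16). It overlaps 4 other annotated genes, 3 of them on the opposite strand. Fth1 (chromosome 19, 9980598 to 9985098, plus strand) stood at 2248 CPM in the control library and 2194 CPM in the irradiated library, a log2 ratio of -0.03 (-0.04 to -0.03). Ftl1 (chromosome 7, 45457944 to 45459884, minus strand) stood at 1003 CPM in the control library and 1107 CPM in the irradiated one, with a log2 ratio of 0.14 (0.13 to 0.15). The light chain was thus slightly higher and the heavy chain almost level, both within the limit used here. Ftl1 has close copies in the genome, among them Ftl1-ps1, listed at 10.3 CPM in the control library and 12.7 CPM in the irradiated library, so its value is uncertain by whatever reads were split between them.

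Hmox1 (chromosome 8, 75093621 to 75100589, plus strand) was scarce, with 289 UMIs in the control library (2.09 CPM) and 336 in the irradiated library (2.06 CPM). Its log2 ratio was -0.02 (-0.25 to 0.21). The 10 cells with the most Hmox1 UMIs held 22.1% of its control UMIs and 9.82% of its irradiated UMIs, and without them the ratio was 0.19. Macrophages break down haem in marrow. The 9 macrophage markers summed to 5.07 CPM in the control library and 5.52 CPM in the irradiated library, 6 of the 9 were higher in the irradiated library, and Marco was at 0 in the control library. Their part in the Hmox1 level was not tested.

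Counted over the members, 3 of 7 were higher by the 25% limit and 0 were lower. At a mean of at least 5 CPM, which 6 members passed, 17.2% of the 9032 genes were higher and 28.3% lower. At the stricter mean of 20 CPM, which Tfrc, Fth1, Ftl1 and Slc25a37 passed, Tfrc alone was higher and none was lower, against 21.2% and 20.4% of all genes. With about 1 gene in 5 passing in each direction, the members' count is read only beside those shares.

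**Figure D1:**
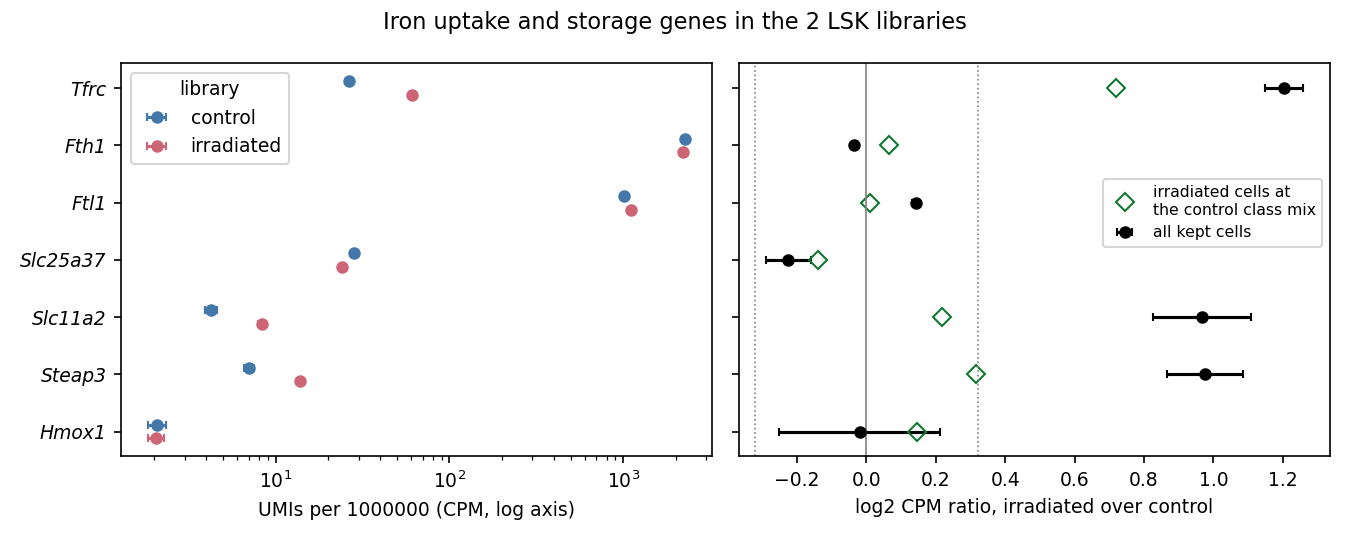
Left, the level of each member in the control and the irradiated library (CPM, log axis, bars are exact Poisson 95% intervals). Right, the log2 ratio of irradiated over control over all kept cells (black, with counting intervals) and after the irradiated clusters were weighted to the control mix (open diamonds), with dotted lines at the 25% limits: Tfrc lies at 1.20 and 0.72, while Steap3 and Slc11a2 drop from 0.98 and 0.97 to 0.31 and 0.22.

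The mix of cells differed strongly between the libraries, so the members were followed within classes of cells. Clusters were named from marker lists, with the members and the related iron genes left out of the clustering. Haematopoietic stem cell-like cells (HSC, marked by Hlf, Procr, Pdzk1ip1 and Mecom) made up 1760 control cells and 348 irradiated cells, in 2 clusters. Lymphoid-primed cells (Dntt, Il12a, Ccr9) made up 1181 and 297, megakaryocyte-primed cells (Pf4, Itga2b, Gp5) 239 and 508, and neutrophil-primed cells (Elane, Ms4a3, Mpo) 118 and 1108. Erythroid-primed cells (Car1, Ermap, Klf1) numbered 56 in the control library and 491 in the irradiated library, too few in the control for a count of genes. Smaller clusters carried B lineage markers (113 and 24 cells) and T/NK lineage markers (52 and 60 cells). Unnamed clusters were led by mitotic and histone genes (cluster 0), by E2f1 and Mcm3 (cluster 1), by Ccl3 and Wfdc17 (cluster 3) and by Cd74 and MHC class II genes (cluster 11).

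Tfrc had a higher level in the irradiated library in the HSC, megakaryocyte-primed, lymphoid-primed and neutrophil-primed classes, by amounts outside counting error, and HSC had the lowest level. In HSC it stood at 14.7 CPM in the control library and 20.01 CPM in the irradiated library, a log2 ratio of 0.45 (0.11 to 0.77) at a mean under the 20 CPM minimum. The make-up of the HSC class differed between the libraries, as given with the ferritin chains below, and its part in the Tfrc level was not tested. In megakaryocyte-primed cells it stood at 17.1 and 27.4 CPM (0.68, interval 0.33 to 1.04). The make-up of that class differed too. Its 10 erythroid-primed markers summed to 152 and 293 CPM, with 9 of 10 higher in the irradiated library. Its 10 HSC markers summed to 567 and 385 CPM, with 1 of 10 higher. The part of this in its Tfrc level was not tested. In lymphoid-primed cells Tfrc stood at 35.0 and 76.0 CPM (1.12, interval 0.95 to 1.29). The make-up of this class differed as well. Its 7 B lineage markers summed to 54.4 and 110 CPM, with 6 of 7 higher in the irradiated library. The 10 HSC markers summed to 176 and 86.2 CPM (3 of 10 higher). The 10 neutrophil-primed markers summed to 1021 and 1351 CPM (8 of 10 higher). Its own 10 markers summed to 2771 and 2728 CPM (3 of 10 higher). The part of this in its Tfrc level was not tested. The neutrophil-primed class had 44.6 CPM in the control library and 85.4 CPM in the irradiated library (0.94, interval 0.74 to 1.14). The control cells of that class carried far more of the 7 mature neutrophil markers, 9139 CPM in sum against 116 CPM in the irradiated cells, with 0 of 7 higher in the latter. Without the 13 control cells and 1 irradiated cell that held at least as many UMIs of these as of the class's own markers, a comparison chosen after the data were seen, the mature neutrophil markers summed to 77.4 and 52.1 CPM. Tfrc was then at 44.0 and 85.4 CPM (0.96, interval 0.75 to 1.16), as large as with them. The 10 monocyte/dendritic-primed markers of the whole neutrophil-primed class summed to 1522 and 1152 CPM, with 2 of 10 higher in the irradiated library. At resolution 2 a monocyte/dendritic-primed cluster (92 and 427 cells) stood beside a neutrophil-primed one (55 and 663 cells). The part of this mix in the Tfrc level was not tested. In the erythroid-primed class the Tfrc values were 79.1 and 117 CPM (0.56, interval 0.24 to 0.90), which changed with the cells left in, as given below. Among the 4 compared classes the lymphoid-primed ratio was the largest and the HSC ratio the smallest, and their intervals do not overlap. Whether the ratios differ between classes beyond the spread of animals was not tested.

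The order of Tfrc levels was read over classes with at least 30 cells in the library, with a 5.39-fold range over classes in the control library and 5.85-fold in the irradiated library. In the control library the erythroid-primed and B lineage classes (79.1 and 76.3 CPM) overlapped in their intervals, as did the B lineage and T/NK classes (58.0 CPM). In the irradiated library the erythroid-primed class came first, and the neutrophil-primed and lymphoid-primed classes overlapped below it. Groups under 30 cells had values as high or higher, 129 CPM (102 to 161) in the 24 irradiated B lineage cells and 94.1 CPM in the 24 control cells of cluster 11. Without its 10 haemoglobin-rich cells the control erythroid-primed class, at 44.8 CPM, would lie below the control B lineage and T/NK classes. HSC was last in both, with an interval that overlapped the class above it. The unnamed clusters 0 and 1 stood in the middle, at 26.3 and 24.9 CPM in the control library and 39.2 and 45.7 CPM in the irradiated library. Tfrc was lower in the irradiated library in 2 small groups, the T/NK lineage cells (58.0 and 32.3 CPM) and cluster 11 (94.1 and 20.2 CPM, from 24 and 71 cells). Both groups differed in make-up between the libraries, cluster 11 as given below. In the T/NK group the 8 T/NK markers summed to 1737 and 975 CPM, with 0 of 8 higher in the irradiated library. The 10 neutrophil-primed markers there summed to 721 and 3029 CPM, with 9 of 10 higher. The part of this in the Tfrc levels was not tested.

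**Figure D2:**
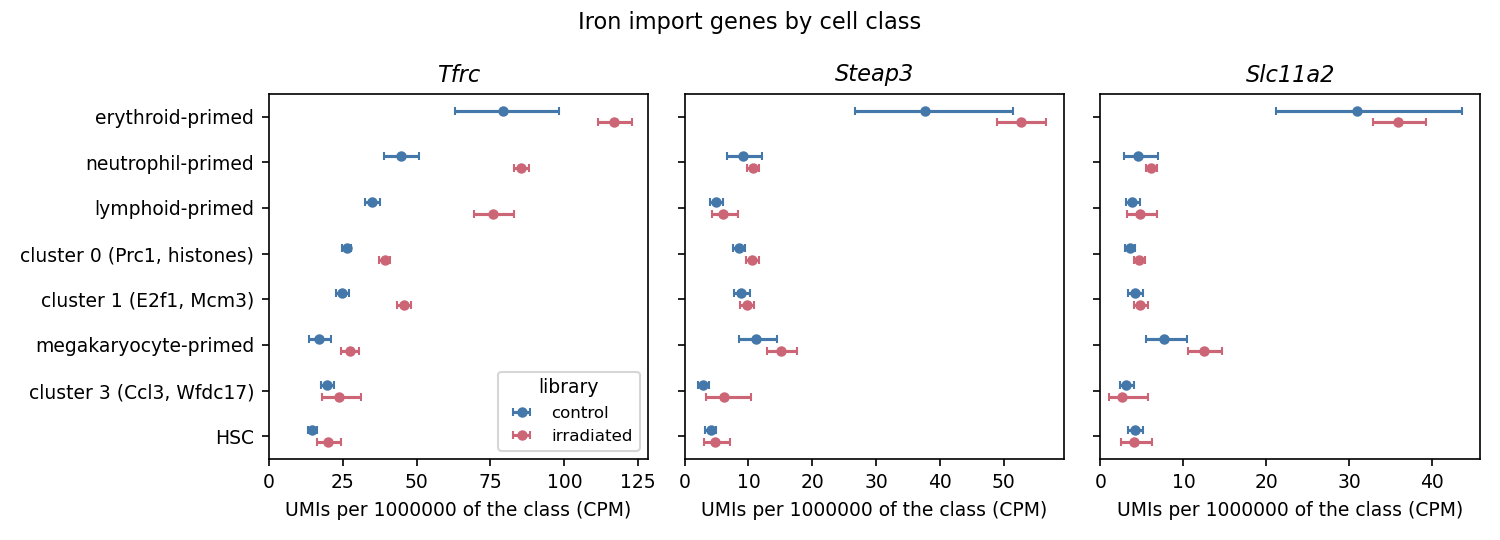
Levels of Tfrc, Steap3 and Slc11a2 (CPM of the class total) in 8 classes of the control and irradiated libraries, with exact Poisson 95% intervals. Tfrc is spread over the classes and higher in the irradiated library in each row, while Steap3 and Slc11a2 stand apart in the erythroid-primed row of both libraries.

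Steap3 and Slc11a2 had another pattern: their highest levels were in the erythroid-primed class in both libraries. The 56 control cells of that class also carried mast cell/basophil markers, as given below. Slc11a2 stood at 30.9 CPM in control erythroid-primed cells and 4.06 CPM in all other control cells, a 7.60-fold difference. In the irradiated library the values were 35.9 and 5.78 CPM, or 6.21-fold. Steap3 stood at 37.6 CPM in control erythroid-primed cells against 6.84 CPM in other cells, and at 52.8 against 10.3 CPM in the irradiated library, 5.51-fold and 5.13-fold. For Tfrc the same comparison gave 3.03-fold and 2.095-fold. The megakaryocyte-primed class came next for Slc11a2 among the named progenitor classes, at 7.67 and 12.5 CPM. Its sum of erythroid-primed markers differed between the libraries, as given above. HSC were low for both genes, at 4.16 and 4.002 CPM for Slc11a2 and 4.07 and 4.80 CPM for Steap3, with intervals on the ratio that span 0.

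The erythroid-primed class held 0.750% of control UMIs and 8.49% of irradiated UMIs. It held 5.43% of Slc11a2 UMIs in the control library and 36.6% in the irradiated library, and 3.996% and 32.2% of Steap3 UMIs. Its part of Tfrc UMIs was 2.24% and 16.3%, while the neutrophil-primed class held 5.90% and 42.8% of them (216 and 4255 UMIs). The neutrophil-primed class held 3.51% of all control UMIs and 30.6% of all irradiated UMIs. All 3 import genes thus had a larger part of their UMIs in the erythroid-primed class than the class had of all UMIs, in both libraries.

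To put the libraries on the same mix, the CPM of each irradiated cluster was weighted by that cluster's share of control UMIs. Tfrc was then at 43.6 CPM against 26.5 CPM in the control library, a log2 ratio of 0.72 or 1.65-fold. Steap3 was at 8.79 against 7.07 CPM (0.31), a ratio of 1.244 that lies just under the 25% limit, and Slc11a2 was at 4.96 against 4.26 CPM (0.22). Fth1 (0.07), Ftl1 (0.01), Slc25a37 (-0.14) and Hmox1 (0.15) stayed close to 0. Tfrc alone was counted as higher and no member as lower, while 6.52% of the 5247 genes were higher and 8.23% lower at this mix. Holding the mix thus lowered the log2 ratios of Steap3 and Slc11a2 by more than that of Tfrc.

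Within the 4 classes with at least 100 cells in each library, Tfrc was the only member counted as higher in any, and no member was counted as lower. In HSC no member was counted either way (8.4% of genes were higher and 10.1% lower). The lymphoid-primed class had Tfrc higher (8.24% of genes higher, 9.17% lower). The megakaryocyte-primed class also had Tfrc higher (7.53% and 13.1% of genes). So did the neutrophil-primed class (5.72% and 6.9% of genes). Tfrc, Fth1, Ftl1 and Slc25a37 were measured at the 20 CPM minimum in some or all of these classes, and Steap3, Slc11a2 and Hmox1 in none. Leaving out the 10 cells with the most UMIs of the gene, or weighting cells equally, added Slc25a37 to the neutrophil-primed count, and leaving them out in HSC counted Slc25a37 as lower.

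Shares of cells with a UMI showed the same directions for the import genes once depth was equal. In cells thinned to 5000 UMIs each (7123 control and 5053 irradiated cells, with 66 and 59 shallower cells left out), Tfrc was detected in 11.1% of control cells (10.4 to 11.8%) and 20.6% of irradiated cells (19.5 to 21.7%). Without thinning the shares were 31.5% and 58.4%. Steap3 was detected in 2.79% and 5.66% of thinned cells and Slc11a2 in 2.08% and 3.66% (unthinned 11.4% and 28.5%, and 7.33% and 19.6%). In HSC, the class with the lowest Tfrc level and median depths of 11447.5 and 13701.5 UMIs, the thinned Tfrc share was 6.30% and 8.80%. In erythroid-primed cells it was 6.82% of 44 control cells (1.43 to 18.7%) and 28.3% of 467 irradiated cells (24.2 to 32.6%). That is a wider gap than the CPM shows, but the control share rests on 3 cells, with 12 shallower cells left out. Without thinning the shares in this class were 33.9% and 59.9%. Slc25a37 was detected in 12.99% and 10.6% of thinned cells, and both ferritin chains in nearly every cell, 98.7% or more.

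The control erythroid-primed level rested on few cells of mixed make-up. In the control cells of the class the 8 mast cell/basophil markers summed to 7174 CPM, above the class's own 10 markers at 2514 CPM, and the 10 lymphoid-primed markers to 2772 CPM. In the irradiated cells these sums were 151, 2858 and 331 CPM. Of the mast cell/basophil markers 2 of 8 were higher in the irradiated library and Mcpt4 was at 0 in both. The class also differed in haemoglobin transcripts: the 7 red cell genes summed to 5351 CPM in control cells of the class and 1160 CPM in irradiated ones, all 7 higher in the control. The 10 cells richest in haemoglobin held 99.8% of the class's haemoglobin UMIs in the control library and 92.9% in the irradiated library. Without them 46 and 481 cells were left, an alternative chosen after the data were seen. Tfrc was then at 44.8 CPM in the control cells and 111 CPM in the irradiated cells, and its log2 ratio was 1.32 (0.86 to 1.81) in place of 0.56. Fth1 moved to 1641 and 2159 CPM, a log2 ratio of 0.40 (0.32 to 0.47) in place of -0.06. Steap3 (0.39) and Slc11a2 (0.23) moved little from 0.49 and 0.22.

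A second alternative chosen after the data were seen left out the 21 control and 41 irradiated cells of the class that held at least as many mast cell/basophil as erythroid-primed marker UMIs. The mast cell/basophil sum was then 35.2 and 24.0 CPM. In the 35 and 450 cells left, Tfrc stood at 99.4 and 121 CPM, and the interval of its log2 ratio of 0.29, -0.04 to 0.63, spans 0. Steap3 stood at 45.3 and 54.8 CPM (0.27, interval -0.21 to 0.80) and Slc11a2 at 37.7 and 36.9 CPM (-0.03, interval -0.57 to 0.55). Their levels in this class thus remained far above those of the other cells, and no difference between the libraries within it was detectable for these 2 genes. Between the alternatives the Tfrc ratio ran from 0.29 to 1.32, so its size in erythroid-primed cells is not settled by these libraries.

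Slc25a37 behaved differently from the import genes in that class. It stood at 50.2 CPM in control erythroid-primed cells and 19.5 CPM in irradiated ones, 2.58-fold lower. Without the haemoglobin-rich cells the values were 21.3 CPM (19 UMIs) and 13.5 CPM (183 UMIs), and the interval of the log2 ratio, -1.34 to 0.11, spans 0. Without the cells rich in mast cell/basophil markers it stayed lower, at 56.6 and 20.02 CPM (-1.50). In the irradiated library the erythroid-primed level was below that of all other cells (24.7 CPM), whereas in the control library it was above (28.2 CPM). That contrast depends on the haemoglobin-rich cells, since without them the control level of 21.3 CPM was below 28.2 CPM too. In the other progenitor classes Slc25a37 ranged from 17.6 to 31.1 CPM over both libraries.

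The ferritin chains varied over the classes in different ways. Fth1 was lowest in megakaryocyte-primed cells in both libraries, at 1739 and 1548 CPM, with an interval that overlapped that of B lineage cells (1752 CPM) in the control. In the irradiated library it was highest in lymphoid-primed cells, at 2672 CPM against 2385 CPM in the control. Ftl1 was high in neutrophil-primed cells, at 1339 and 1376 CPM, and low in the B lineage cells, at 691 and 572 CPM. Between libraries the HSC class had less of both in the irradiated library: Fth1 stood at 2290 and 2127 CPM (log2 ratio -0.11, interval -0.14 to -0.08) and Ftl1 at 1259 and 1123 CPM (-0.16, interval -0.21 to -0.12). These are differences of 1.08-fold and 1.12-fold, outside counting error and within the 25% limit. The make-up of the HSC class differed too. Its 10 HSC markers summed to 1004 and 772 CPM (3 of 10 higher in the irradiated library). The 10 neutrophil-primed markers there summed to 1239 and 1556 CPM (8 of 10 higher), and the 7 red cell genes to 77.7 and 200 CPM (3 of 7 higher). The part of this in the HSC ferritin levels was not tested. Cluster 11 had larger differences between the libraries, with Fth1 at 3542 and 1903 CPM and Ftl1 at 1481 and 2109 CPM. In that cluster the macrophage markers summed to 0 CPM in the control library and 44.3 CPM in the irradiated library, with all 9 higher in the latter. The 7 red cell genes summed to 0 and 2958 CPM, all 7 higher, and the 10 monocyte/dendritic markers to 7621 and 18538 CPM, 3 of 10 higher. The part of these cells in its ferritin levels was not tested.

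**Figure D3:**
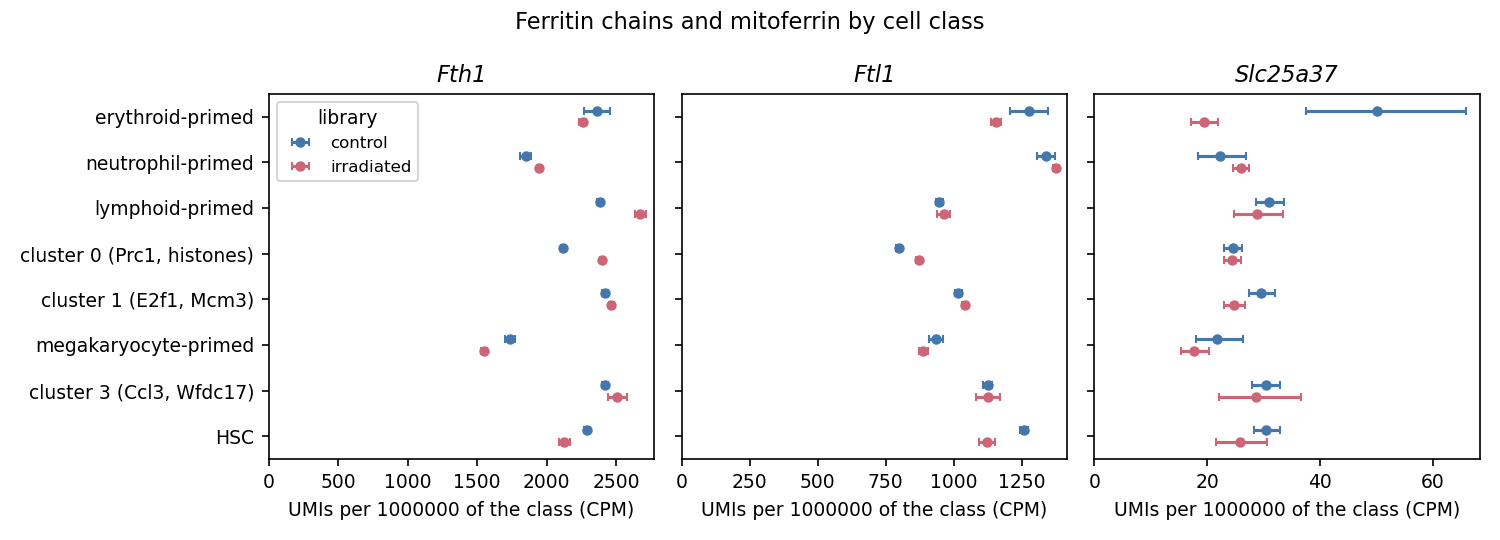
Levels of Fth1, Ftl1 and Slc25a37 (CPM of the class total) in 8 classes of both libraries, with exact Poisson 95% intervals. The ferritin chains differ less between the libraries than over classes, and the widest gap is that of Slc25a37 in erythroid-primed cells, 50.2 CPM in the control and 19.5 CPM in the irradiated library.

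Hmox1 had its highest level in cluster 11 of the irradiated library, at 20.2 CPM (26 UMIs), where the control cells had 2 UMIs. In neutrophil-primed cells it stood at 8.88 CPM in the control library (43 UMIs) and 1.77 CPM in the irradiated library (88 UMIs), a log2 ratio of -2.33 (-2.87 to -1.77) at a mean under the minimum. The mature neutrophil markers in the same cells summed to 9139 and 116 CPM, as above. Without the 13 control cells and 1 irradiated cell rich in them, Hmox1 was at 2.14 CPM (10 UMIs) and 1.77 CPM (88 UMIs), and the interval of its log2 ratio, -1.22 to 0.84, spans 0. The macrophage markers summed to 21.7 and 5.62 CPM in the whole class, 1 of 9 was higher in the irradiated library, and Marco was at 0 in both libraries. Over all classes, the control cell with the most Hmox1 held 25 UMIs. In HSC it was level, at 3.76 and 3.602 CPM.

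Levels also differed by cell cycle phase, called by score in cells thinned to 5000 UMIs. The share of cells called G1 was 48.95% in the control library and 20.9% in the irradiated library, and that of G2/M 23.2% and 47.4%. Over all kept cells, Tfrc was lower in G1 than in the other phases in both libraries. It stood at 19.1 CPM in control G1 cells and 36.2 CPM in irradiated G1 cells, at 31.4 and 63.7 CPM in S phase, and at 29.1 and 64.4 CPM in G2/M. The log2 ratio between libraries was 0.92 (0.77 to 1.07) in G1, 1.02 (0.93 to 1.11) in S and 1.15 (1.06 to 1.23) in G2/M. Within classes, G1 was also lowest in both libraries in HSC, lymphoid-primed and erythroid-primed cells, the last from 12 control cells in G1. In lymphoid-primed cells Tfrc stood at 27.6 CPM in G1, 43.5 CPM in S and 35.1 CPM in G2/M in the control library. The irradiated values were 67.7, 75.0 and 112 CPM. Control neutrophil-primed cells had G1 lowest too, from 8 cells in G1. Megakaryocyte-primed cells and irradiated neutrophil-primed cells did not keep that order. In control megakaryocyte-primed cells Tfrc stood at 22.5 CPM in G1, 19.1 CPM in S and 13.03 CPM in G2/M, and in irradiated neutrophil-primed cells at 85.3, 89.5 and 83.4 CPM. Between the libraries, the G1 ratio was 1.29 (1.01 to 1.57) in lymphoid-primed cells, but its interval spanned 0 in HSC (0.31, -0.10 to 0.71) and in megakaryocyte-primed cells (0.14, -0.73 to 1.07). Over all kept cells, Steap3 had the largest ratio of G2/M over G1 among the members, 2.23-fold in the control library and 2.04-fold in the irradiated library. Within classes this Steap3 ratio was 1.09-fold and 0.82-fold in HSC and 1.09-fold and 1.07-fold in lymphoid-primed cells. It was 1.10-fold and 2.68-fold in megakaryocyte-primed cells, 1.78-fold and 1.77-fold in erythroid-primed cells and 1.35-fold in irradiated neutrophil-primed cells. Ftl1 ran the other way over all kept cells, at 1177 CPM in control G1 cells and 869 CPM in control G2/M cells. The irradiated values were 1193 and 1079 CPM. Free RNA enters these calls too, and its part was not tested.

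**Figure D4:**
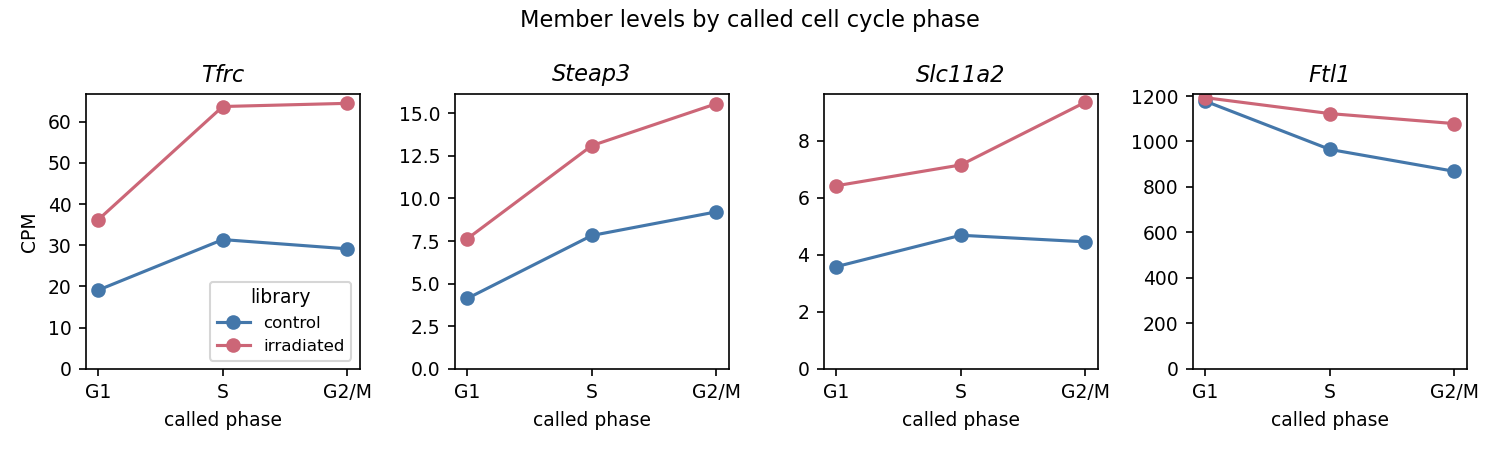
Levels of Tfrc, Steap3, Slc11a2 and Ftl1 (CPM of the cells called in each phase) in the control and irradiated libraries. Over all kept cells the Tfrc lines are apart at each phase, from 19.1 against 36.2 CPM in G1 to 29.1 against 64.4 CPM in G2/M, and those of Ftl1 meet in G1.

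The related genes of iron and haem handling were read from 9 lists with 95 genes. The files held 90 of them and 67 had a mean of at least 5 CPM. Of these, 19 were higher in the irradiated library and 8 lower, with a median log2 ratio of 0.13 against -0.06 over all 9032 genes at that mean. These are 28.4% and 11.9% of the 67, beside 17.2% higher and 28.3% lower over all genes, and the counts of single lists below are to be set beside the same shares. Haem synthesis had the largest share of higher genes, 5 of 8 measured with 0 lower and a median of 0.40. Alas1, the first enzyme of the pathway, stood at 28.4 CPM in the control library and 68.9 CPM in the irradiated library (log2 ratio 1.28). Cpox, a later enzyme, stood at 14.0 and 29.7 CPM (1.08). Urod (0.47) and Alad (0.34) were among the higher genes too.

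At the control mix of clusters these ratios were smaller, 0.17 for Alas1, 0.33 for Cpox, 0.25 for Urod and 0.09 for Alad. Alas1 was highest, among the named progenitor classes, in neutrophil-primed cells, at 149 CPM in the control library and 163 CPM in the irradiated library, and stood at 17.4 and 11.1 CPM in erythroid-primed cells. Cpox was at 130 and 153 CPM in erythroid-primed cells. Alas2, the red cell form of the first enzyme, had 14 and 40 UMIs in all.

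Mitochondrial iron and iron-sulfur assembly had 4 of 17 measured genes higher (23.5%, near the 17.2% of all genes) and 1 lower. Glrx5, which passes on iron-sulfur clusters, stood at 109 and 178 CPM (0.70), and at 0.39 at the control mix. Hspa9, its chaperone partner, stood at 162 and 219 CPM (0.44). Bola3 (0.42) and Abcb10 (0.66) were the other higher genes, named after their values were seen, and Isca1 was lower, at 40.7 and 31.3 CPM (-0.38). In cytosolic iron-sulfur assembly 3 of 8 were higher: Nubp2 (0.66), Fam96a (0.49) and Ciapin1 (0.43), the last named after its value was seen. None of this list was lower.

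The import list beyond the members had 2 of 7 measured genes higher and 1 lower. Trf, which encodes transferrin itself, was the lower one, at 46.4 CPM in the control library and 33.9 CPM in the irradiated library (-0.45). It was below the control level in all 4 compared classes, with log2 ratios from -0.96 in megakaryocyte-primed cells to -0.34 in HSC. The higher ones, named after their values were seen, were Tfr2, a second transferrin receptor (14.2 and 18.3 CPM), and Lcn2, a carrier of siderophore-bound iron (7.09 and 25.8 CPM). Lcn2 was highest, among the named progenitor classes, in the neutrophil-primed class, where it was lower in the irradiated library (190 and 75.6 CPM).

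In iron sensing, none of 5 measured genes was higher and 1 was lower, Fbxl5 (-0.46, named after its value was seen), which marks iron regulatory protein 2 for breakdown. The iron regulatory proteins themselves, which bind the hairpins printed above, were within the limit: Ireb2 stood at 23.4 and 19.8 CPM (-0.24) and Aco1, also named after its value was seen, at 8.76 and 9.34 CPM (0.09). Ferritin handling had 0 of 4 higher and Herc2 lower (-0.34), with Ncoa4, the receptor that delivers ferritin for breakdown, at 65.3 and 55.3 CPM (-0.24). Iron export and systemic control had 1 of 3 higher, Hfe (1.00, named after its value was seen), and 1 lower, Abcg2 (-0.49).

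Haem breakdown and sensing had 1 of 7 measured genes higher and 2 lower. Blvrb, a reductase of the breakdown product of haem, stood at 32.8 and 74.4 CPM (1.18). It stood at 583 and 650 CPM in the erythroid-primed class, and at the control mix its ratio was -0.25. Bach1, the haem-sensing repressor of Hmox1, was lower, at 26.8 and 17.8 CPM (-0.59), as was Hebp1 (-0.42, named after its value was seen). Of the Nrf2 targets 3 of 8 were higher, Gsr (1.13), Gclm (0.65) and G6pdx (0.57, named after its value was seen), and Txnrd1 was lower (-0.35). Gsr was nearly level within each of the 4 compared classes and highest in the neutrophil-primed class, at 211 and 209 CPM.

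**Figure D5:**
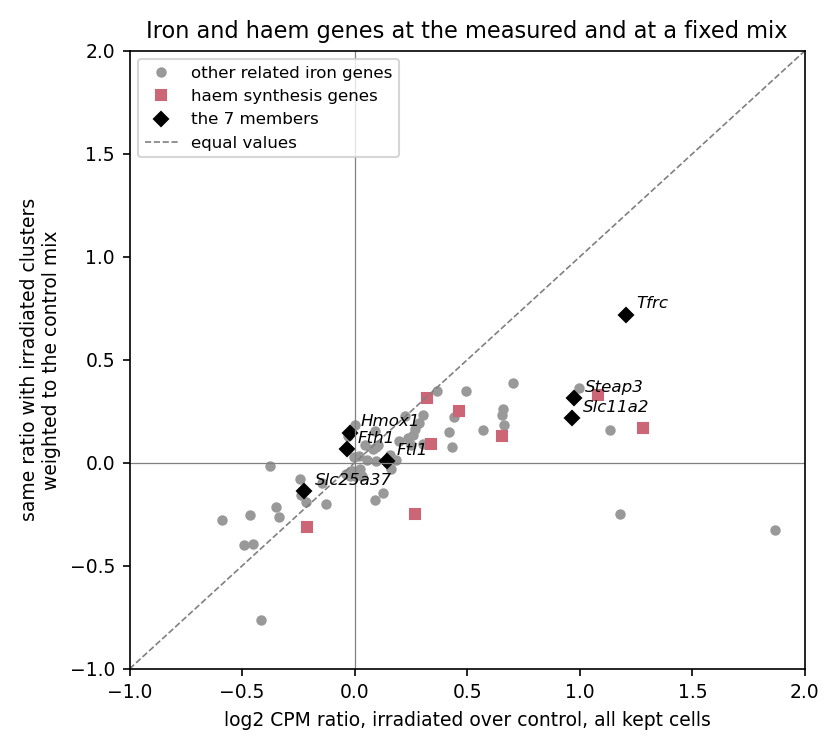
Log2 ratio of irradiated over control for the 7 members (black diamonds), 8 haem synthesis genes (red squares) and the other related genes at a mean of at least 5 CPM (grey), over all kept cells (horizontal axis) and with the irradiated clusters weighted to the control mix (vertical axis). Most genes with a high ratio lie far below the line of equal values, and Tfrc, at 1.20 and 0.72, lies highest on the vertical axis.

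The genes whose levels over classes were most like each member's were found by Pearson correlation of log2(CPM + 1) over 20 sums of UMIs per class and library. The sums share libraries, depth and the classes themselves, so the correlations are descriptions. Slc11a2 was most like Cpox (r = 0.90), Ppp6c (0.86) and Gps2 (0.85). Steap3 was most like Hdgf (0.96), Hars (0.95) and Carnmt1 (0.94). Tfrc was most like Mak16 (0.86), Mrpl30 (0.85) and Copz1 (0.84). Fth1 was most like the ribosomal protein genes Rplp1 (0.81), Rpl10 (0.72) and Rps20 (0.72), and Ftl1 most like Sat1 (0.90), Itm2c (0.87) and Mia2 (0.84). Slc25a37 was most like Clpx (0.80), Ube4b (0.78) and Il17ra (0.78), and Hmox1 most like Lemd2 (0.84), Lyn (0.83) and Mapk14 (0.83). Among the members the closest pair was Slc11a2 and Steap3 (0.80), followed by Ftl1 and Hmox1 (0.75), Tfrc and Steap3 (0.68) and Tfrc and Slc11a2 (0.61). The 2 ferritin chains were nearly unrelated over these sums (0.03).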

How the data were processed

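The deposited values were raw counts of UMIs per gene and barcode, whole numbers in 1 matrix per library. Per the submitters' processing notes Cell Ranger 2.1.1 and mm10 were used, while the file headers give software version 3.1.0. The members and gene lists were chosen with earlier results of these data known.

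Barcodes with at least 1000 UMIs, 500 genes and at most 10% mitochondrial UMIs were kept (496 of 7686 control and 468 of 5596 irradiated barcodes were removed), and Scrublet at an expected rate of 0.06 removed those it called. Cells were clustered on 2000 variable genes and 30 principal components with 15 neighbours per library and Leiden resolution 1 (Python 3.11.15, scanpy 1.11.5, leidenalg 0.10.2). Clusters were named from at least 3 markers among the 25 genes with the highest CPM fold detected in at least 10% of the cluster's cells. That naming rule was set after clusters were seen. Classes follow rebuilt names and may differ from the study's. UMIs were summed per library and class, with exact Clopper-Pearson intervals for ratios and shares and Poisson intervals for levels (scipy 1.17.1). The ratio intervals were tested on simulated data. Named genes are the 7 members, up to 2 highest and 2 lowest of each list at a mean of 20 CPM, and the 3 genes most like each member. Others are marked as named after their values were seen. Coordinates are from GENCODE M21. Alternatives covered scaling, cell weights, thinning, filters, clustering, the cells with the highest counts and, added after the data were seen, the cells rich in haemoglobin or in another class's markers. Free RNA was not removed. Values of some single genes are not reported here.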

Additional observations from a re-analysis of the deposited data

Results flagged for a closer look

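The ferritin chains moved in opposite directions in different classes beyond counting error, though the difference between the classes was not tested and each step is small. For Fth1 the log2 ratio of irradiated over control was 0.16 in lymphoid-primed cells and 0.0708 in neutrophil-primed cells, against -0.11 in HSC and -0.17 in megakaryocyte-primed cells. For Ftl1 it was 0.0392 (0.00247 to 0.0762) in neutrophil-primed cells, against -0.16 in HSC and -0.0734 in megakaryocyte-primed cells. Median-of-ratios scaling shifted the ratios of neutrophil-primed cells by 0.00888, which is more than the lower end of that Ftl1 interval. Whether the interval excludes 0 thus depends on the scaling. The signs in neutrophil-primed cells changed under 1 of 10 settings for each chain, and that of Ftl1 in HSC and in megakaryocyte-primed cells under 1 setting each. The make-up of the compared classes differed between the libraries, as given above, and its part in these ratios was not tested. The criterion, counting intervals on opposite sides of 0 in 2 compared classes, was set after the data were seen, and an earlier, stricter one had singled out no result.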

How the results depend on the processing

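No paired analysis was possible because each group had 1 library and no test was run. Over all kept cells, 3 members were higher and 0 lower under each of the 8 settings, the reported one included. The log2 ratio of Tfrc ranged from 1.09 to 1.21, that of Steap3 from 0.89 to 1.10 and that of Slc11a2 from 0.86 to 0.98, while Hmox1 ran from -0.06 to 0.22 and had no stable direction. Among counts within classes, 1 member was lower in HSC without the 10 highest cells (0 otherwise reported), and 2 members were higher in neutrophil-primed cells both with each cell weighted equally and without the 10 highest cells (1 otherwise reported). The cause was not tested. In the compared classes where it reached the 20 CPM minimum, Tfrc kept a positive log2 ratio. It ran from 0.98 to 1.14 in lymphoid-primed, 0.63 to 0.89 in megakaryocyte-primed and 0.73 to 1.42 in neutrophil-primed cells. In HSC Tfrc lay under that minimum, and its ratio there was not followed over the settings. The ferritin ratios of HSC lay between -0.15 and -0.03 for Fth1 and between -0.22 and 0.02 for Ftl1. No megakaryocyte-primed class was found at resolution 0.5. At the control mix and resolution 2, Tfrc was at 0.68 and Steap3 at 0.20. Median-of-ratios scaling shifted ratios by 0.02 over all cells and by -0.02 (megakaryocyte-primed) to 0.02 (lymphoid-primed) within classes. With 1 library per group, differences between animals cannot be told apart from those of the treatment.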
